A study of Felis catus with 12 samples.

Results

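Genes of the phosphate energy system of the heart, CKM, CKMT2, CKB, SLC6A8, GATM, AK1, AK3 and AK4, were followed through 12 libraries of feline left ventricle. They were taken by gene symbol, with earlier results of these data known. All 8 are among the 30785 genes listed, and all 8 are among the 8820 genes that had at least 10 reads in at least 3 libraries and were tested. Each library holds left ventricular free wall RNA of 1 cat, collected post mortem and sequenced directly as RNA on Oxford Nanopore flow cells. The study behind these hearts asked how fibrosis, vessels, nuclei and gene expression vary among client-owned cats that died with or without known cardiac disease.

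The labels name the cat, the flow cell and the barcode, and neither a treatment nor a genotype. Flow cell A carried cats 11, 23, 30 and 31, flow cell B cats 10, 15, 35 and 36, and flow cell C cats 37, 38, 29 and 22. The flow cells were therefore the groups compared here, and each held different cats, so that flow cell and cat cannot be told apart. Outcomes are not in the labels and were not compared here. In the study's description of the cats, all of the cats of flow cell A had a known cardiac death. On the other flow cells cats 36 and 29 had none. The study's list of sequenced cats does not hold cats 22 and 29, so that their outcomes rest on the labels alone. Between 789257 and 2263110 reads per library fell on genes (median 1221712), and values are given as normalised read counts, which are reads divided by 1 size factor per library. All 10 cardiomyocyte markers were detected, with a summed share of 10.2% to 15.6% of reads, whereas the 4 listed markers of fast skeletal muscle together took at most 0.000440%. No 2 libraries of a flow cell agreed within sampling noise.

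Creatine kinases move a phosphate group between ATP and creatine. In cardiac muscle the mitochondrial enzyme charges creatine next to the inner membrane, the cytosolic enzymes use phosphocreatine to regenerate ATP at the myofibrils and ion pumps, and creatine itself has to be made elsewhere and imported. Adenylate kinases convert pairs of ADP into ATP and AMP and so form a parallel route, with different members in the cytosol and in mitochondria.

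The cytosolic muscle creatine kinase CKM was one of the most sequenced genes of these ventricles. Its reads made up 2.04% of all reads on genes in cat 31, which was the lowest share, and 9.42% in cat 36, which was the highest, with a median of 3.83%. The 8 genes together took 2.16% to 9.57%, so that nearly all of this was CKM. On flow cell A the normalised read counts of CKM were 34775 in cat 11, 30336 in cat 23, 46219 in cat 30 and 25912 in cat 31. On flow cell B they were 49726 in cat 10, 114471 in cat 15, 39076 in cat 35 and 147371 in cat 36. On flow cell C they were 41412 in cat 37, 66414 in cat 38, 60205 in cat 29 and 44674 in cat 22. Cats 15 and 36 stood above all the others, and 3 of the 4 values of flow cell A were below every value of the other flow cells, while cat 30 lay among them.

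Mitochondrial sarcomeric creatine kinase, encoded by CKMT2, separated the flow cells more cleanly. Its normalised read counts were 684 in cat 11, 1285 in cat 23, 1293 in cat 30 and 1066 in cat 31. On flow cell B they ran from 1702 in cat 36 to 1875 in cat 15, with 1739 in cat 10 and 1846 in cat 35. On flow cell C they were 1956 in cat 37, 1987 in cat 38, 2668 in cat 29 and 1688 in cat 22. All 4 libraries of flow cell A were thus below all 8 others, and flow cell B was the most even, with a mean of 1790 ± 83.1 (SD, n = 4).

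The brain-type cytosolic creatine kinase CKB gave few reads, between 20 and 186 per library. Its values varied 13.1-fold, from 15.8 in cat 35 to 206 in cat 29, with a median of 67.2. The mean was 50.8 ± 22.8 on flow cell A, 46.8 ± 27.9 on flow cell B and 121 ± 61.6 on flow cell C (SD, n = 4 each). Cat 29 and, with 126, cat 38 were the highest, and the flow cells overlapped.

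AK1, the main cytosolic adenylate kinase of muscle, was the member with the clearest split. Its normalised read counts on flow cell A were 141 in cat 11, 257 in cat 23, 229 in cat 30 and 261 in cat 31. On flow cell B they were 449 in cat 10, 538 in cat 15, 380 in cat 35 and 519 in cat 36. On flow cell C they were 413 in cat 37, 564 in cat 38, 421 in cat 29 and 449.6 in cat 22. The highest value of flow cell A was below the lowest of the 8 others, and flow cells B and C overlapped.

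AK3 encodes the GTP:AMP phosphotransferase of the mitochondrial matrix. Its values on flow cell A were 55.5 in cat 11, 48.4 in cat 23, 30.3 in cat 30 and 55.8 in cat 31. On flow cell B they were 36.1 in cat 10, 31.3 in cat 15, 58.3 in cat 35 and 20.5 in cat 36. On flow cell C they were 34.3 in cat 37, 13.2 in cat 38, 25.5 in cat 29 and 35.1 in cat 22. Cat 35 had the highest and cat 38 the lowest value, and the groups overlapped. AK4, another mitochondrial matrix member, ranged 2.57-fold, from 13.53 in cat 10 to 34.8 in cat 11, with 24.2 to 34.8 on flow cell A and 13.53 to 32.4 on the other flow cells. Cats 22 and 29 alone lay within the range of flow cell A.

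SLC6A8, the creatine transporter that imports creatine from the blood, was the most even member. It ranged 2.17-fold, from 26.1 in cat 30 to 56.5 in cat 29, with a median of 31.4. GATM, which catalyses the first step of creatine synthesis and acts mostly in kidney, was the most variable. Its values were 11.583, 57.8, 10.9 and 6.38 in cats 11, 23, 30 and 31, and 21.5, 11.8, 9.98 and 13.502 in cats 37, 38, 29 and 22. On flow cell B, cat 15 had 6.81, cat 36 had 1.78 from 2 reads and cat 10 had 1.13 from 1 read, while cat 35 had 0 reads, which allows a value of up to 2.36 (3 reads). Cat 23 was far above all the others, and 6 of the 12 libraries had at least 10 GATM reads.

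**Figure D1:**
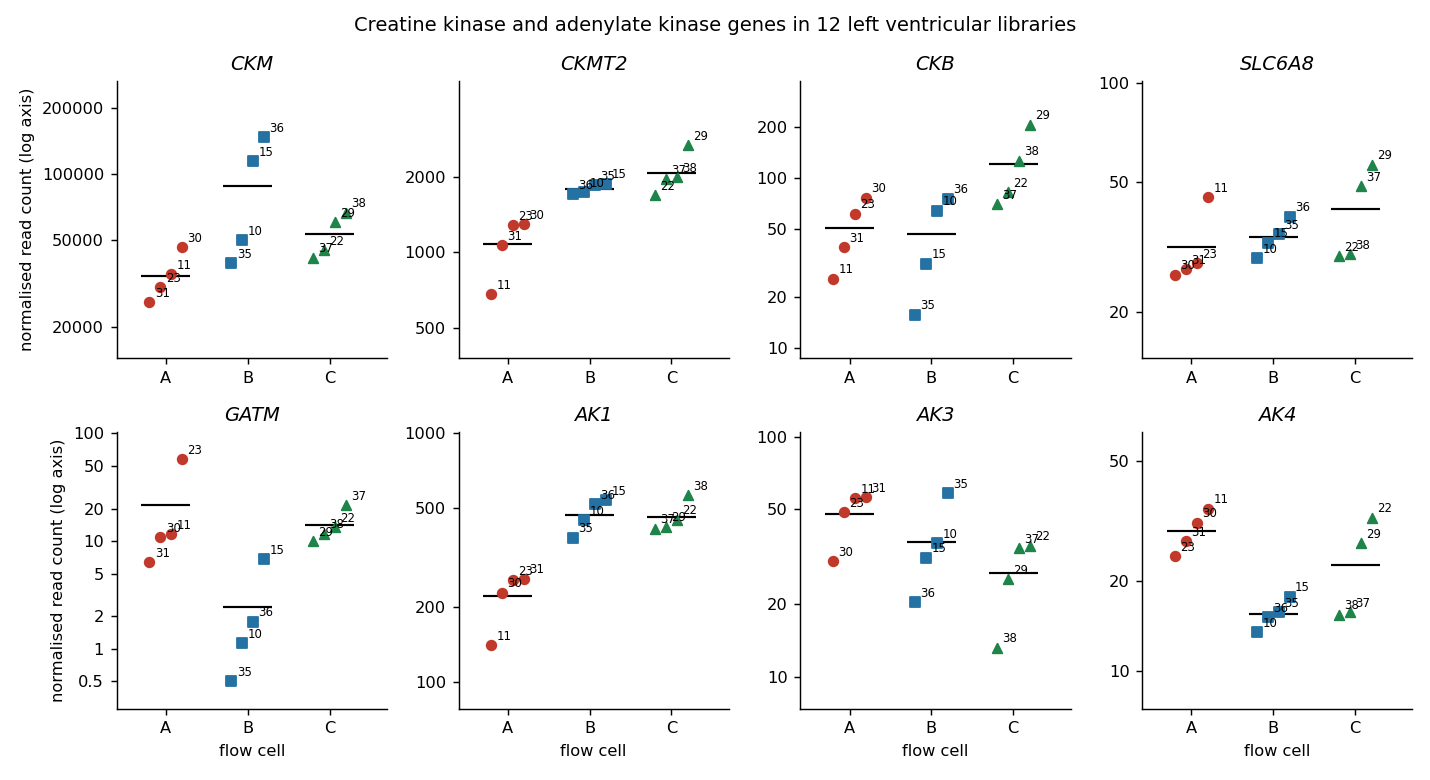
Normalised read counts of the 8 genes (log axes, 1 panel per gene with its own scale) in the 4 libraries of each flow cell; numbers are cat numbers, horizontal bars are means, and the 0 of GATM in cat 35 is drawn at 0.5. For AK1 and CKMT2 all 4 points of flow cell A lie below the 8 others.

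How far these differences exceed counting error depends on the gene. The coefficient of variation over the 12 libraries was 62.4% for CKM, where counting alone gives 0.421%, and 31.02% against 2.54% for CKMT2. It was 34.98% against 5.24% for AK1, and 70.8% against 12.0% for CKB. For the sparsely sequenced members the margin was smaller, with 39.4% against 16.4% for AK3, 34.6% against 21.1% for AK4, 27.3% against 17.0% for SLC6A8 and 121% against 30.2% for GATM. These figures cover counting error only. The RefSeq gene table at hand, which belongs to another cat assembly than the one used for mapping, matched all 8 symbols. In it CKMT2 and AK4 each overlap a long non-coding RNA, CKB a pseudogene and GATM a tRNA, so that reads of these 4 genes could in part be those of the neighbour.

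Between flow cell A and the mean of flow cells B and C, 2 of the 8 genes differed by limma, and both were lower on flow cell A. By the same rule 3.56% of the 8820 tested genes were lower and 1.81% were higher on flow cell A. AK1 was 2.14-fold lower on flow cell A, with a mean of 222 ± 55.7 (SD, n = 4) against 467 ± 65.7 (SD, n = 8). On the log2(value + 1) scale the difference was -1.10 (SE 0.198, limma adjusted p = 0.00790). CKMT2 was 1.82-fold lower, with 1082 ± 286 against 1932 ± 318 and a log2 difference of -0.87 (SE 0.197, limma adjusted p = 0.0197). Neither gene overlapped between the groups, and among all tested genes 2.51% had values on flow cell A that were all below, and 1.70% all above, those of the 8 other libraries. At an unadjusted p under 0.05, 21.9% of tested genes passed.

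AK1 was called in all 22 alternative analyses, with adjusted p from 2.26e-05 to 0.0444. The call of CKMT2 was lost without cat 11 (log2 difference -0.66), without cat 31 (log2 difference -0.87, with the highest adjusted p of 0.100), and when values were scaled to the library total (log2 difference -0.66). It held in the other 19.

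For CKM the mean was 34310.3 ± 8725 on flow cell A and 70419 ± 39456 on the others, and the log2 difference was -0.91 (SE 0.335, limma adjusted p = 0.123). DESeq2 on the recovered reads was the only one of the 22 alternatives that called CKM, with a log2 difference of -0.99 (adjusted p = 0.0280). GATM, which a stricter filter removed, was likewise called by DESeq2 alone among the 21 alternatives in which it was tested, at 1.37 (SE 0.578) by limma with adjusted p = 0.178 and 1.93 by DESeq2 with adjusted p = 0.0379. Without cat 23, whose GATM value was the highest, the limma difference was 0.75. The log2 differences of the members that were called in no setting were 0.64 for AK4, 0.63 for AK3, -0.50 for CKB and -0.24 for SLC6A8, with limma adjusted p of 0.167, 0.253, 0.504 and 0.611. The median over the 8 members was -0.37, beside 0.03 over all tested genes.

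**Figure D2:**
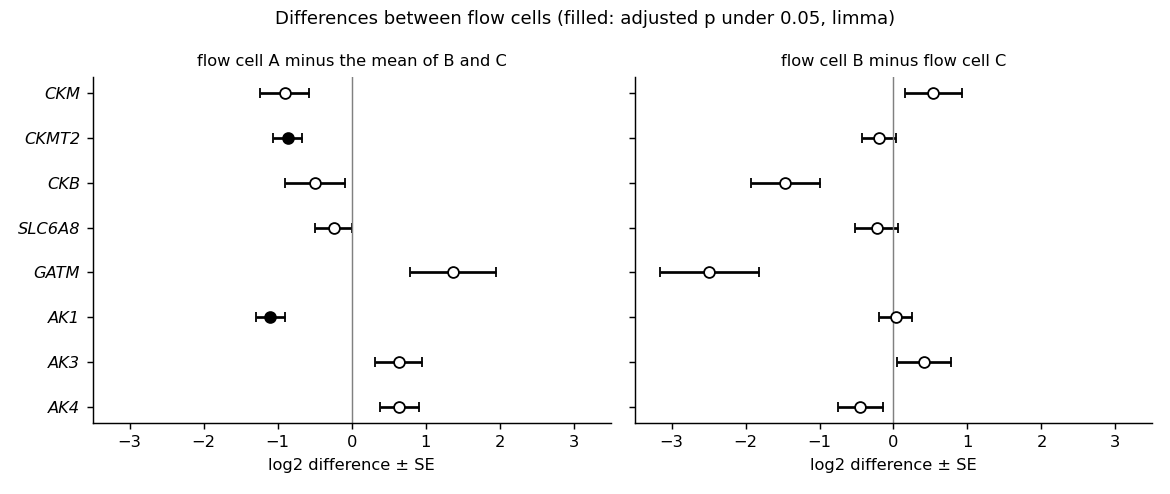
Difference in log2(value + 1) between flow cell A and the mean of B and C (left) and between B and C (right) for the 8 genes, with bars of ±1 standard error of limma's fit. AK1 (-1.10) and CKMT2 (-0.87) are the only filled points, and no gene is filled on the right.

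Some cell type markers differed in the same contrast. In bulk tissue, fewer cells of a type and less RNA per cell cannot be told apart. Of the 10 cardiomyocyte markers 5 were lower on flow cell A and none was higher, among them the troponin subunit TNNI3 (log2 difference -1.64, limma adjusted p = 0.0122) and the light chain MYL3 (-1.11, adjusted p = 0.0101). Of the 10 estimates 8 were negative, with a median of -0.92, and those that did not pass included the abundant light chain MYL2 (-0.16, adjusted p = 0.791) and the cardiac actin ACTC1 (0.59, adjusted p = 0.363). Their summed level overlapped between the groups, at 10.2% to 14.3% of reads on flow cell A and 10.34% to 15.6% on the others. Of the 7 fibroblast markers 4 were higher on flow cell A, including COL1A1 (log2 difference 2.63, adjusted p = 0.00232), and their sum was 0.0950% to 0.310% against 0.0208% to 0.152%. Of the 6 smooth muscle and pericyte markers 2 were higher, TAGLN (2.63, adjusted p = 0.00764) and CNN1 (5.90, adjusted p = 0.00232). PDGFRB (0.43), ACTA2 (0.36), MYH11 (0.14) and RGS5 (0.03) did not pass, with limma adjusted p of 0.622, 0.454, 0.910 and 0.972. The sums over the 6 markers include TAGLN and CNN1. They were 0.0433% to 0.107% on flow cell A and 0.00916% to 0.0298% on the others, and did not overlap. None of the 7 tested endothelial and 7 tested leukocyte markers passed in either direction, and of all the markers LYZ alone had no read in any library. The part of these cell types in the results for AK1 and CKMT2 was not tested.

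The neighbours of the members in the pathway were read from lists fixed by name. Of the 5 tested adenine nucleotide carriers and porins, which pass ATP and ADP through the mitochondrial membranes, 1 was lower on flow cell A and 0 were higher. This was SLC25A4, the main nucleotide carrier of heart muscle, with values of 3204 to 7237 on flow cell A and 7677 to 15785 on the others (log2 difference -0.98, limma adjusted p = 0.0465). All 5 estimates in this list were negative, with a median of -0.54. Of the 5 M-band proteins, the structures to which muscle creatine kinase binds in the sarcomere, 1 was lower, namely MYOM2 (log2 difference -0.93, adjusted p = 0.0446), and again all 5 estimates were negative, with a median of -0.54.

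The further genes of the family did not pass. Of 9 other creatine and adenylate kinase pathway genes 3 could be tested, and 0 were called in either direction, with a median log2 difference of 0.39. GAMT, which completes creatine synthesis, was at -0.09, AK6 at 0.39 and AK9 at 0.76. AK7 had no read in any library, and CKMT1A and AK8 had at most 3 and 2 reads in a library. Of 9 genes of the AMP-activated kinase and its upstream kinases, a system that senses the AMP that adenylate kinases form, of 10 tested genes of AMP and adenosine turnover and of 6 tested genes of arginine and methyl supply, 0 were called, with medians of -0.19, 0.03 and -0.14.

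Between flow cells B and C none of the 8 members differed by limma, and 0% of all tested genes were called, although 7.89% (696 genes) had an unadjusted p under 0.05. edgeR called 0 genes and DESeq2 called 23, none of them a member. The largest estimates among the members were those of GATM, at -2.49 (SE 0.668, limma adjusted p = 0.370), and CKB, at -1.46 (SE 0.469, limma adjusted p = 0.434). All 4 GATM values of flow cell B were below those of flow cell C, as was so for 2.05% of tested genes, while 2.15% lay wholly above. AK1 and CKMT2 differed by 0.03 (SE 0.229) and -0.19 (SE 0.228). The fibroblast markers also differed in estimate here, and not only in the contrast with flow cell A. All 7 were negative, with a median of -1.59 beside -0.00197 over all tested genes, and 0 were called.

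The balance of the cytosolic creatine kinases within a library does not depend on scaling between libraries. CKB made up 0.0274% of the reads of CKB and CKM in cat 15 (exact 95% binomial interval 0.0173% to 0.0410%) and 0.341% in cat 29 (0.294% to 0.394%), which is a 12.5-fold range, with a median of 0.158%. On flow cell A the share was 0.0735% in cat 11, 0.203% in cat 23, 0.165% in cat 30 and 0.151% in cat 31. On flow cell B it was 0.129% in cat 10, 0.0403% in cat 35 and 0.0513% in cat 36 beside cat 15, and on flow cell C 0.169% in cat 37, 0.190% in cat 38 and 0.184% in cat 22 beside cat 29. Flow cell A did not differ from the others by an exact permutation test of the flow cell labels (mean log2 ratio of CKB to CKM higher by 0.40, two-sided p = 0.566). This difference was 0.13 without cat 15, 0.21 without cat 35, 0.22 without cat 23, 0.26 without cat 36, 0.65 without cat 29 and 0.71 without cat 11, and p was 0.318 or higher whichever library was left out. The 4 shares of flow cell C were all above the 4 of flow cell B, a comparison noticed after the values were seen and not tested.

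**Figure D3:**
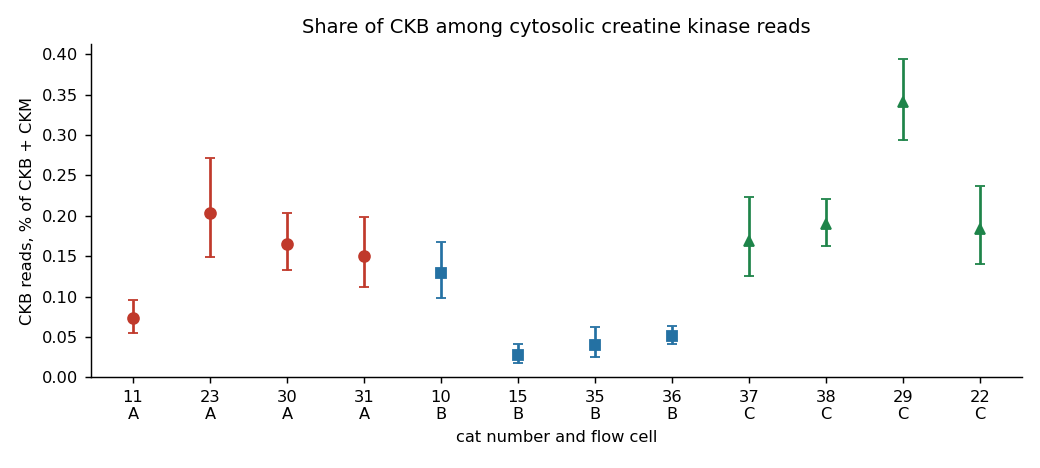
CKB reads as a percentage of CKB plus CKM reads in each library (linear axis from 0), with exact 95% binomial intervals that cover counting error only. Cat 29 of flow cell C is highest at 0.341% and cat 15 of flow cell B lowest at 0.0274%.

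A pair of further ratios was computed after the values were seen and is given without a test. CKMT2 made up 1.14% of the reads of CKMT2 and CKM in cat 36 and 4.51% in cat 35, both of flow cell B, with a median of 3.51%. Cats 15 and 36, whose CKM was highest, thus had the smallest mitochondrial share with 1.61% and 1.14%. AK3 made up 28.3% of the reads of AK3 and AK1 in cat 11, 15.9% in cat 23, 11.7% in cat 30 and 17.6% in cat 31. In the other libraries it ranged from 2.29% in cat 38 to 13.3% in cat 35, so that cat 35 alone reached the range of flow cell A.

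Across the 12 libraries, 6 of the 28 pairs of members had a Pearson r of log2(value + 1) with a permutation p under 0.05, and 3 pairs did once the flow cell means had been subtracted. CKM and AK3 were inversely related, with r = -0.702 (permutation p = 0.0118, 0.0829 adjusted over the 28 pairs) and Spearman's rho = -0.839 (permutation p = 0.00116). Without cats 36 and 15, whose CKM lay farthest from its median, r was -0.865. With flow cells centred it was -0.814 (permutation p within flow cells = 0.00038, adjusted 0.0106). In the 8 libraries of flow cells B and C alone, a choice made after seeing the data, it was -0.540 (exact permutation p = 0.172). Of the tested genes, 2.59% had an r with CKM as negative.

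CKB and AK3 were also inversely related, with r = -0.726 (permutation p = 0.00747, adjusted 0.0829) and rho = -0.783 (permutation p = 0.00348). Without cats 35 and 29 r was -0.723, and with flow cells centred it was -0.700 (permutation p = 0.0314, adjusted 0.372). The third pair after centring was CKMT2 and CKB (r = 0.534, permutation p = 0.0450, adjusted 0.372), which over all libraries had r = 0.515 (permutation p = 0.0878) and rho = 0.448 (permutation p = 0.147).

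The other 4 pairs involved AK1, whose values fell into 2 separate clusters by flow cell, so that no r over all 12 libraries is given for them. Within the 8 libraries of flow cells B and C, r of AK1 was 0.756 with CKM (exact permutation p = 0.0317) and -0.789 with AK3 (exact permutation p = 0.0152), neither adjusted for the number of pairs. With flow cells centred over all 12 libraries, these were 0.365 (permutation p = 0.219) and -0.553 (permutation p = 0.0718). The signs were the same, but neither relation was detected there. With CKMT2, r among the 8 libraries was -0.202 (exact permutation p = 0.690), and with AK4 it was -0.187 (exact permutation p = 0.661). With flow cells centred over all 12 libraries, these were 0.540 (permutation p = 0.197) and -0.358 (permutation p = 0.241). The joint position of AK1 and CKMT2 was thus one of low values in the 4 libraries of flow cell A. No relation between them was detected within flow cells, where the estimates differed in sign between the 8 libraries and the centred values.

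**Figure D4:**
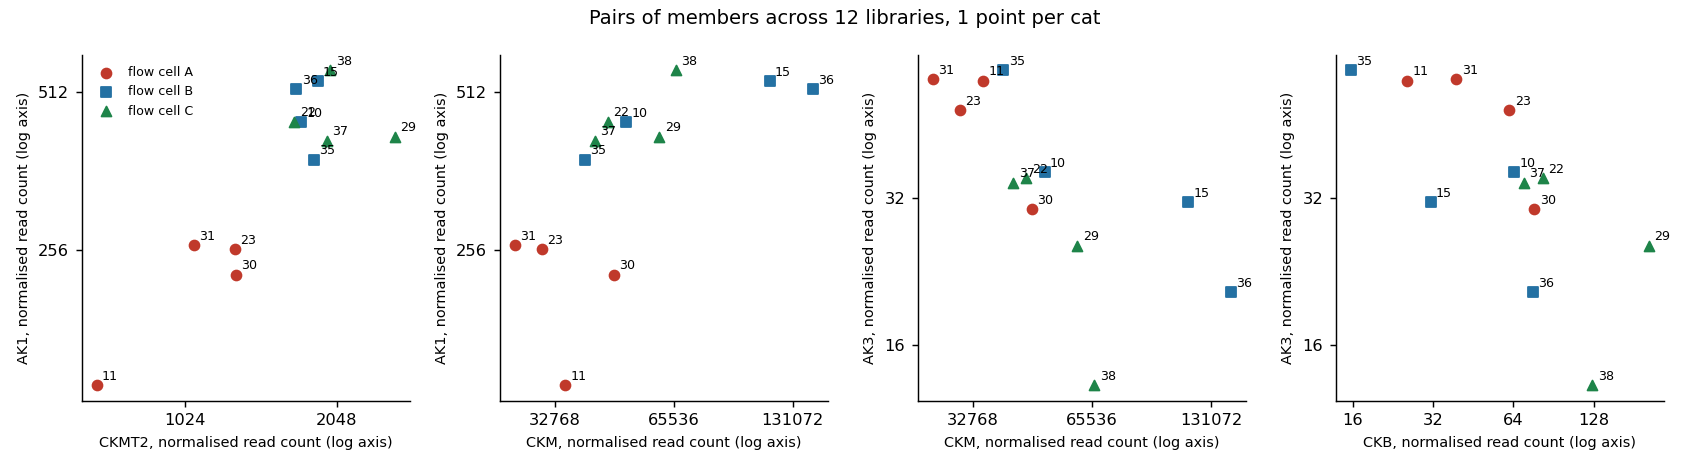
Normalised read counts of AK1 against CKMT2 and CKM, and of AK3 against CKM and CKB (both axes logarithmic), with 1 point per cat and marks by flow cell. AK1 and CKMT2 form a low group of 4 libraries of flow cell A, and AK3 falls as CKM and CKB rise (r = -0.702 and -0.726).

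For each member the 3 tested genes with the most similar values over the 12 libraries were listed, by Pearson r of log2(value + 1). The list is a description only, since depth and flow cell differed among the libraries. The genes most like CKMT2 were IDH2, a mitochondrial isocitrate dehydrogenase, at 0.978, and the respiratory complex I subunits NDUFA9 and NDUFV1, at 0.963 and 0.956. With flow cells centred these were 0.945, 0.873 and 0.904. CKM was followed most closely by ZFAND2B at 0.919, CHCHD3, a protein of the mitochondrial inner membrane, at 0.916 and SPATA24 at 0.901. CKB was nearest to CAMK2D, a calcium-dependent kinase of cardiac muscle, at 0.908, to TFF2 at 0.895 and to UBAP2 at 0.892.

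AK1 was nearest to the uncharacterised LOC109499352 and LOC101089914 at 0.956 and 0.955, and to FN3K, a kinase that repairs glycated proteins, at 0.948. The genes most like AK3 and AK4 had few reads, with medians of 4, 5 and 35.5 reads for SH3BP4 (0.927), MST1 (0.869) and ETF1 (0.865), and 12, 7.5 and 15 reads for FOXN2 (0.895), MAK16 (0.894) and the collagen receptor DDR2 (0.891). GATM was nearest to KIF1B (0.911), SYNPR (0.902) and RPRD1A (0.901). SLC6A8 had the least similar neighbours, with PFDN2, a chaperone subunit, at 0.813, the proteasome subunit PSMC4 at 0.788 and SCNM1 at 0.778.

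Age and myocardial fibrosis, taken from the study's description of the cats, were set against the 8 genes in 16 relations. Age was known for 9 and myocardial fibrosis for 8 of the cats that entered, and the libraries labelled as cats 22 and 29 stayed out because the study's list of sequenced cats does not hold them. Of the members 0 were called for either trait, and 0% of all tested genes were, while 4.72% (416 genes) had an unadjusted exact permutation p under 0.05 for age and 2.83% (250 genes) for fibrosis. limma slopes also gave 0 genes, with 4.58% (404 genes) and 2.63% (232 genes) at an unadjusted p under 0.05. The smallest exact permutation p that these designs allow is 5.51e-06 for age and 4.96e-05 for fibrosis. For fibrosis a single gene at that p could not pass the adjustment over 8820 genes, and for age it would only just pass. The absence of calls by rho therefore says little about single genes, above all for fibrosis.

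Spearman's rho with age ranged from -0.300 for SLC6A8 (exact permutation p = 0.437) to 0.367 for GATM (exact permutation p = 0.336). CKM had a rho of 0 with age. CKMT2 had 0.233 (exact permutation p = 0.552; Pearson r = 0.195, exact permutation p = 0.624), and with flow cells centred its r was 0.649 (exact permutation p = 0.128). All adjusted p were 0.972 or higher.

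With myocardial fibrosis, rho ranged from -0.333 for CKMT2 (exact permutation p = 0.428) to 0.476 for GATM (exact permutation p = 0.243), and all adjusted p were 1. The rho of CKMT2 was -0.810 with reads left unscaled, -0.0357 with flow cells centred and -0.0714 without cat 23. For GATM, Pearson r was 0.572 (exact permutation p = 0.139) and fell to 0.223 without cats 23 and 15. With flow cells centred it was 0.926 over 7 cats (exact permutation p = 0.0208). The limma slope with flow cell in the model was 0.30 log2 units per percentage point (SE 0.0859, unadjusted p = 0.00551), with an adjusted p of 0.999 over all tested genes. This relation of the gene with the fewest reads therefore did not pass. For the other 7 members, rho with fibrosis lay between -0.333 and 0.214.

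**Figure D5:**
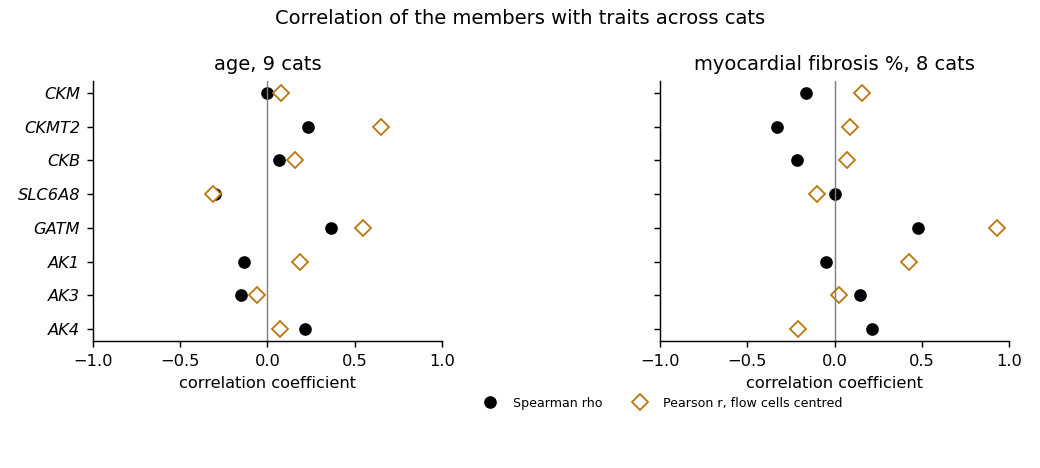
Spearman's rho of the 8 genes with age (9 cats) and myocardial fibrosis percentage (8 cats), as filled points, and Pearson r after flow cells were centred, as open diamonds, on an axis from -1 to 1. GATM has the highest rho in both panels, 0.367 and 0.476, and no relation passed the adjustment over all tested genes.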

How the data were processed

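Left ventricular RNA of 12 cats was sequenced with the direct RNA method, with 1 library per cat and 4 barcodes per flow cell. Base calling by the authors used Guppy with a quality filter, and the reads were aligned to the felCat9 genome by Minimap2 before FeatureCounts assigned them to genes. The strand setting is not given in the sources used here. The deposited signal values are reads per gene divided by 1 size factor per library (0.699 to 2.07). In every library 100% of values were whole multiples of 1 read within a tolerance of 1e-06, so that whole reads were recovered. On these reads edgeR called 468 genes for flow cell A versus the rest, and limma on the deposited values 474.

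limma 3.58.1 (R 4.3.3) with an intensity trend was fitted to log2(value + 1) of all 8820 genes, and p-values were adjusted by Benjamini-Hochberg over all of them, at a threshold of 0.05. A fold change on this scale understates that of low genes. Trait correlations used Spearman's rho with exact two-sided permutation p-values, and pairs of members used 100000 permutations. Alternatives were edgeR 4.0.16, DESeq2 1.42.0, other scalings, filters and pseudocounts, barcode as a block and leaving out libraries. The scripts were tested on simulated data of 8820 genes, with 100 genes changed by 1 log2 unit and another 100 by 3 log2 units. For flow cell A against the others, 24% of changes of 1 log2 unit were found, and 92% of changes of 3 log2 units. For limma slopes on age these figures were 0% and 72%, and on myocardial fibrosis 4% and 67%. The simulated trait changes spanned the whole range of the trait, and these figures do not cover Spearman's rho. False calls numbered 3 for flow cell A and 4 for each trait. The absence of a call thus says little about changes near 1 log2 unit. Named genes are the 8 members, context and marker genes past the test between flow cells or at 0, and the 3 genes most like each member. AK6, AK8, AK9, GAMT, CKMT1A, MYL2, ACTC1, PDGFRB, ACTA2, MYH11 and RGS5 were named after their values were seen. The members and lists were chosen with earlier results of these data known. Since each cat gave 1 library, p-values measure the spread between cats together with that between preparations. In the fits between flow cells this is the spread inside flow cells only. Spread from one flow cell run to another is not in those p-values, as libraries served as replicates of a flow cell. Sequences of the genes were not used here, and 1 gene of the family is not reported here.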

Additional observations from a re-analysis of the deposited data

Results flagged for a closer look

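Within the flow cells, 33 groups of 4 libraries were screened for a library that stands apart by Dixon's gap test, and chance alone flags about 1 in 20 groups. Of these, 3 were flagged. On flow cell A, SLC6A8 was 44.9 in cat 11, beside 26.1, 27.1 and 28.2 in the other libraries, and GATM was 57.8 in cat 23, beside 6.38, 10.9 and 11.583. On flow cell C, CKB made up 0.341% of CKB and CKM reads in cat 29, beside 0.169%, 0.184% and 0.190%. Cat 11 had the most reads and cat 23 the fewest of the 12 libraries, and the causes were not tested.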

How the results depend on the processing

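Of 862 comparisons with an alternative setting, 803 were labelled unchanged, 34 changed sign and 20 were counts that moved. Unchanged means that an estimate kept its direction and side of the threshold. For a correlation between members it means only that the sign held, and for a count that its size stayed similar. Between flow cell A and the others 2 members were called, but 1 with values scaled to the library total, which shifts the median of all genes by 0.20 on the log2 scale, 4 with DESeq2, and 1 to 2 when single libraries were left out. The causes were not tested. The 474 genes called over the whole table became 832 with DESeq2, 255 without cats 22 and 29, and 54 without cat 11, 165 without cat 31, 283 without cat 15 and 314 without cat 29. Between flow cells B and C the 0 genes became 23 with DESeq2, 2 with a pseudocount of 4, 1 with library totals, 1 without cats 22 and 29 and up to 2 when single libraries were left out. The small AK1 difference between flow cells B and C changed sign with library totals (-0.057), without cats 22 and 29 (-0.048) and when single libraries were left out (-0.040 to 0.127). The barcode number as a replicate block called the same 2 members and 569 genes. Pairs with p under 0.05 fell from 6 to 3 with flow cells centred. Weak correlations with traits changed sign. With reads left unscaled, rho with age was -0.267 for CKMT2, -0.251 for CKB and -0.150 for AK4, and with fibrosis -0.0361 for AK3 and -0.333 for AK4. With cats 22 and 29 it was -0.100, -0.245 and 0.0909 for CKMT2, CKB and AK3 with age, and 0.0303 for AK1 with fibrosis. Pearson r was 0.0764 for AK3 with age and 0.00579 for CKM with fibrosis. Centred on flow cells, rho with fibrosis was 0.0714, 0.429 and -0.143 for CKM, AK1 and AK4, and with total fibrosis 0.0952 for AK1 and -0.0238 for AK4. When single cats were left out, rho with age ran from -0.214 to 0.262 for CKB, -0.571 to 0.0476 for AK3, -0.405 to 0.0952 for AK1 and -0.0238 to 0.524 for AK4, and rho with fibrosis from -0.393 to 0.250 for CKM and -0.321 to 0.143 for AK1. Depth limits GATM, AK4, SLC6A8 and AK3 most, with counting errors of 30.2%, 21.1%, 17.0% and 16.4%.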
